A study of Mus musculus with 127 samples.

Results

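The Gadd45 stress genes (Gadd45a, Gadd45b and Gadd45g) and 4 inhibitors of cyclin-dependent kinases (CDKs; Cdkn1a, Cdkn1b, Cdkn1c and Cdkn2c) were followed in cultured mouse blood stem and progenitor cells. These 7 genes were chosen by name with earlier results of these data known, and all 7 were among the 23366 gene symbols of the count table. Long-term stem cells (LT), short-term stem cells (ST) and multipotent progenitors (MPP) were sorted from mouse bone marrow by surface markers and cultured in HSPC medium. Bulk polyA RNA was sequenced by SMART-seq2, a full-length cDNA method. The 4 mice given ligand (LPS at 100 ng/ml together with Pam3csk4 at 1 ug/ml) were young mice 1, 2 and 3 plus old mouse 2, sampled at 0, 0.5, 1, 2, 4, 8 and 12 h. Young mouse 4 plus old mouse 4 supplied the culture that had no ligand, sampled at 0, 2, 4 and 8 h. No strain, sex or age in months, and no genetic change, is given in the sources used here, and each library came from many sorted cells of 1 mouse. Because the culture without ligand rested on other mice than the culture with it, ligand and mouse cannot be told apart in that comparison.

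GADD45 proteins are small acidic proteins without enzyme activity. They bind the kinase MTK1 (Map3k4) and so switch on the p38 and JNK kinases, they bind PCNA and the CDK1-cyclin B complex, and they have been linked to active DNA demethylation. Gadd45a is a classical p53 target, Gadd45b is a classical NF-kB target, and Gadd45g is induced by cytokines in many cell types. Cdkn1a (p21), Cdkn1b (p27) and Cdkn1c (p57) form the CIP/KIP family, which binds cyclin-CDK complexes, whereas Cdkn2c (p18) belongs to the INK4 family, which binds CDK4 and CDK6 alone. In bone marrow, p57, p27, p21 and p18 are known as restraints on the cycling of stem and progenitor cells. LPS and Pam3csk4 are ligands of Toll-like receptors, which signal through NF-kB and MAP kinases.

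The 108 libraries left after summing technical repeats (75 young, 33 old) held 990801 to 11764630 counts, and 1 count stood for 0.085 to 1.01 CPM (counts scaled to a library of 1e6 counts). LT markers summed to 99 to 2.2e+03 CPM in LT cells at 0 h and to 39.5 to 669 CPM in MPP cells, with none of the 11 genes at 0 in all mice. ST cells held as much (93.3 to 1.91e+03 CPM), so these markers did not set LT apart from ST. In LT cells of young mouse 4 the sum was 99 CPM, the lowest of the 6 mice, against 332, 779.6 and 2.2e+03 CPM in young mice 1, 2 and 3. The 6 neutrophil granule genes, which none of these sorted populations should hold in quantity, summed to 98.8 to 240 CPM at 0 h in young mouse 3 and to 16760 to 64450 CPM in the other 5 mice. Young mouse 3 therefore stood apart from the rest. The part of these transcripts in the results below was not tested, and in bulk RNA fewer cells of a type and less RNA per cell cannot be told apart.

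The stretches of 250 bases before the annotated starts are shown for Cdkn1a and Gadd45b because they were the members that changed, and for the other Gadd45 genes because they are relatives of Gadd45b that did not pass. Sequences and starts are those of RefSeq on GRCm38.p6, matched by symbol. Of the 7 members, 6 had an entry, with 8 windows in all.
Cdkn1a, upstream start, chr17:29090729-29090978, plus strand: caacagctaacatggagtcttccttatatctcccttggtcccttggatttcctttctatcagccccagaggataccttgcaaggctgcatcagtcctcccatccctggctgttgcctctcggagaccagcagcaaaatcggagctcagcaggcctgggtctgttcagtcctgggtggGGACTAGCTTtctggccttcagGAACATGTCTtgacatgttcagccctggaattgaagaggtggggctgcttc
Cdkn1a, downstream start, chr17:29093519-29093768, plus strand: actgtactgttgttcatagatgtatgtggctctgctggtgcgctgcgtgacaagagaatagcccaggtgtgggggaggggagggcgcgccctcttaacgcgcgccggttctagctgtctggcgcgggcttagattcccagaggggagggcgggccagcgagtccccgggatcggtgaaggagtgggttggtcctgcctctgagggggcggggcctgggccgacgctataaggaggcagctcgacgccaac
Gadd45b, chr10:80929841-80930090, plus strand: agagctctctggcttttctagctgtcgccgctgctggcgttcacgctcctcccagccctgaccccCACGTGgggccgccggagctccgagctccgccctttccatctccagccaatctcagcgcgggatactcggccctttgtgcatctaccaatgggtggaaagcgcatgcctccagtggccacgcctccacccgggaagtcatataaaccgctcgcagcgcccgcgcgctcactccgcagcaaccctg
Gadd45a, chr6:67037408-67037657, minus strand: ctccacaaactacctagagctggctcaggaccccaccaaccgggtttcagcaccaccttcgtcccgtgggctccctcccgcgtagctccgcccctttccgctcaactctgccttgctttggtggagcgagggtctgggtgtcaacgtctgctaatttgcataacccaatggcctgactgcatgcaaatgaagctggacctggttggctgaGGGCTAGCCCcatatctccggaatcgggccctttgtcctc
Gadd45g, chr13:51846425-51846674, plus strand: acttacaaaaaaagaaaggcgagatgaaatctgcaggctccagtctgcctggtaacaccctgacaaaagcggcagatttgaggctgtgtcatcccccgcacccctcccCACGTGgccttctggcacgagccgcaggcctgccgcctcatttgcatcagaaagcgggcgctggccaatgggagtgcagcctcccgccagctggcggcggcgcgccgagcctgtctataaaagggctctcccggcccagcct
Each is written 5′ to 3′ on the strand of its gene, and capitals mark p53 half-sites (Cdkn1a, Gadd45a) and E-boxes with the letters CACGTG (Gadd45b, Gadd45g).

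Both strands of 300-base windows, from 250 bases before a start to 50 after it, were searched for 5 motifs. The upstream Cdkn1a window held p53 half-sites at -73 to -64 and at -51 to -42, and the Gadd45a window held 1 at -40 to -31. A half-site occurred in 8.36% of all 32851 mouse windows. E-boxes lay at -185 to -180 in Gadd45b and at -142 to -137 in Gadd45g, and 1 lay at 35 to 40 after a Cdkn2c start, against 7.15% of all windows. The CCAAT box, present in 37.4% of windows, was found in all 3 Gadd45 windows, in that of Cdkn1b (3 matches) and in 1 of Cdkn2c, and in neither Cdkn1a window. No member window held an NF-kB site (4.51% of all windows) or an AP-1 site, TGANTCA (7.81%). Since a match is only a run of letters, and the windows are short, this says nothing of where any factor binds.

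Cdkn1a, which encodes the CDK inhibitor p21 and is the best known transcriptional target of p53, stood at 0 to 16.9 CPM at 0 h in young mice 1 to 3 and at 134 to 733 CPM after 1 and 2 h of culture with ligand. In LT cells it was at 0, 8.67 and 3.28 CPM at 0 h in young mice 1, 2 and 3 and at 121.5, 148.5 and 273 CPM at 0.5 h. At 1 h the same mice gave 154, 484 and 733 CPM, and at 2 h they gave 293, 485 and 322 CPM. By 4 h the values were 246, 173 and 149 CPM, by 8 h 170.3, 156 and 66.3 CPM, and by 12 h 179.7, 161 and 34.5 CPM. Every later LT library was thus above every 0 h library, with mouse 3 highest at 0.5 and 1 h and lowest from 4 h on.

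ST cells followed the same course. Cdkn1a stood at 10.9, 10.8 and 0.975 CPM at 0 h in young mice 1, 2 and 3, at 185, 157 and 229 CPM at 0.5 h, and at 304, 539 and 727 CPM at 1 h. It was at 222, 267 and 245 CPM at 2 h, at 369.9, 211 and 74.3 CPM at 4 h, at 83.3, 187 and 21.8 CPM at 8 h and at 95.6, 70.8 and 39.4 CPM at 12 h. The lowest later value was still above the highest 0 h value, and the mice lay closest together at 2 h.

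In MPP cells Cdkn1a was already at 16.9, 13.6 and 8.21 CPM at 0 h in young mice 1, 2 and 3. It reached 106, 112 and 194 CPM at 0.5 h, 134, 282 and 454 CPM at 1 h and 322, 458 and 240.4 CPM at 2 h. The values then were 220.4, 328 and 95.95 CPM at 4 h, 73.7, 177 and 67.7 CPM at 8 h and 65.4, 96.3 and 36.8 CPM at 12 h. Again no later library reached down to the 0 h range. Old mouse 2 ran through the same course, from 2.69 CPM in LT, 6.07 in ST and 24.7 in MPP at 0 h to its highest values of 778.5, 850.2 and 422 CPM, all at 1 h. Over the 12 courses with ligand (4 mice, 3 cell types), the highest Cdkn1a value fell at 1 h in 7, at 2 h in 4 and at 4 h in 1, and all 72 later libraries were above the 0 h library of their own mouse and cell type.

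**Figure D1:**
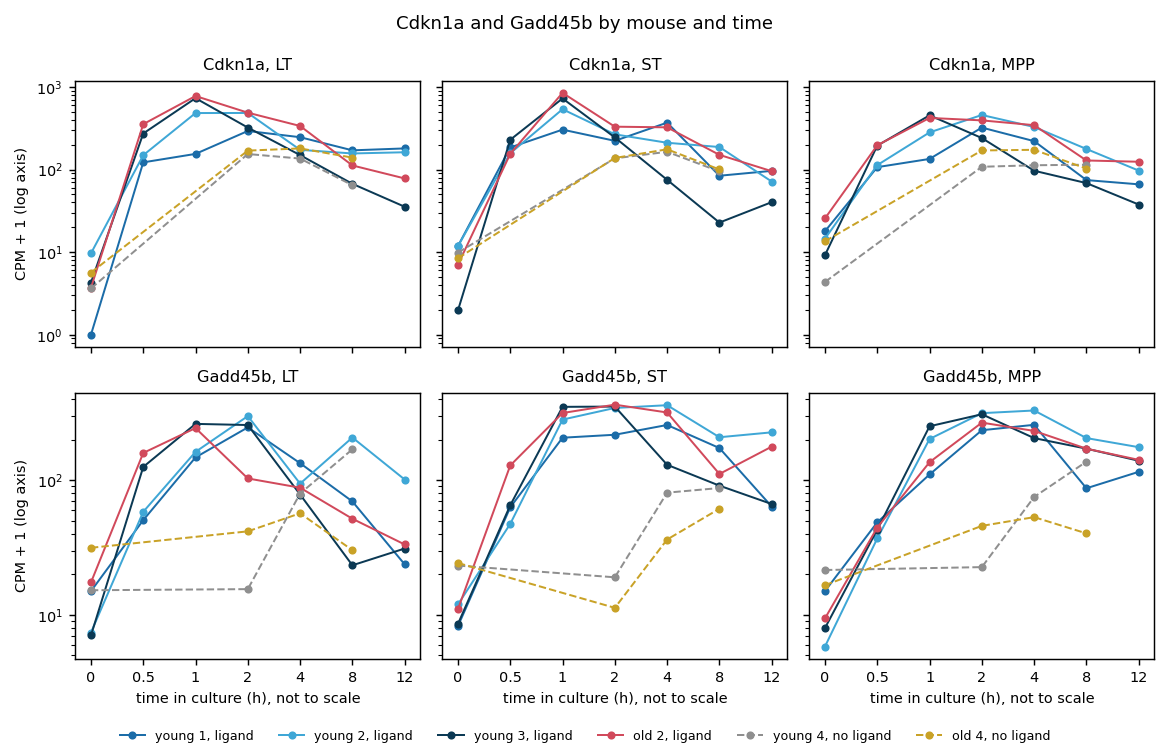
Cdkn1a (upper row) and Gadd45b (lower row) in LT, ST and MPP cells over time in culture, as CPM + 1 on a log axis, with 1 line per mouse, solid with LPS and Pam3csk4 and dashed without ligand. Time points are evenly spaced, not to scale. All Cdkn1a lines leave the 0 h level by 2 h, dashed lines included, whereas the dashed Gadd45b lines at 2 h lie between 10.3 and 44.8 CPM, below the solid ones (102 to 364 CPM).

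In the edgeR fit over young mice 1 to 3, Cdkn1a rose in LT cells by 6.96 ± 1.03 (SE) on the log2 scale at 1 h (adjusted p = 2.8e-05), in ST cells by 6.27 ± 1.00 (adjusted p = 1.3e-04), and in MPP cells by 4.62 ± 0.92 (adjusted p = 0.0069). The changes passed an adjusted p of 0.05 at all 6 times in LT cells (5.02 to 6.96), at 5 of 6 in ST cells (3.75 to 6.27) and at 1, 2 and 4 h in MPP cells (4.22 to 4.93). Over the 7 members and 18 contrasts of time against 0 h, 31 of 126 tests (24.6%) were higher and none lower, against 0.247% of all gene tests in these contrasts that were higher. All 31 belonged to Cdkn1a (14) and Gadd45b (17). Because the members were chosen with earlier results of these data known, such shares, here and below, describe the set and do not test it. Under DESeq2 the same comparison gave 35 member calls, all higher, with 1.22% of all gene tests higher. Under limma 22 were higher, with 1.79% of all gene tests higher, and 1 was lower (Cdkn2c). Those 22 were 13 of Gadd45b and 9 of Cdkn1a, with all 6 Cdkn1a contrasts in MPP cells (3 of them not called by edgeR) but 1 of 6 in LT and 2 of 6 in ST cells, so 8 of the 14 edgeR calls of Cdkn1a were lost.

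Pairing libraries by mouse added 3 Cdkn1a calls: ST at 12 h, with 3.26 ± 0.87 (adjusted p = 0.087) without the block and 3.33 ± 0.82 (adjusted p = 0.019) with it, MPP at 0.5 h, with 3.49 ± 0.88 (adjusted p = 0.16) and 3.58 ± 0.83 (adjusted p = 0.048), and MPP at 8 h, with 3.18 ± 0.86 (adjusted p = 0.14) and 3.10 ± 0.81 (adjusted p = 0.05, just under the threshold before rounding). The Cdkn1a calls depended on which mice were kept. Of the 18, 0 passed without young mouse 2, 6 without young mouse 1 and 11 without young mouse 3. Without young mouse 2 the LT changes were still 6.19 to 8.29. With only the compared libraries in the fit, no LT or ST time passed either (5 of 6 did in MPP).

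Cdkn1a was also high in cells that received no ligand. In LT cells it went from 2.63 CPM at 0 h to 154, 135 and 63.8 CPM at 2, 4 and 8 h in young mouse 4 and from 4.66 to 169, 179.7 and 139 CPM in old mouse 4. In ST cells it went from 8.89 to 136, 163.5 and 94.0 CPM and from 7.45 to 137.5, 175 and 99.5 CPM. In MPP cells it went from 3.36 to 107, 112 and 114 CPM and from 12.6 to 169.8, 173 and 102 CPM. All 18 later libraries without ligand lay above their own 0 h library, and the highest value fell at 4 h in 4 of the 6 courses.

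Without ligand Cdkn1a rose in LT cells by 5.67 ± 1.04 at 2 h (edgeR, adjusted p = 0.0086), by 5.67 ± 1.04 at 4 h (0.0057) and by 4.94 ± 1.01 at 8 h (0.0099), in ST cells at 4 h by 4.64 ± 0.98 (0.022), and in MPP cells at 4 h by 4.47 ± 0.97 (0.025) and at 8 h by 4.05 ± 0.96 (0.04). These were the 6 of 63 member tests (9.52%) called higher without ligand, against 0.0895% of all gene tests. The other 3 Cdkn1a contrasts were called once libraries were paired by mouse: ST 2 h moved from 4.26 ± 0.96 (adjusted p = 0.083) to 4.25 ± 0.82 (0.0032), ST 8 h from 3.77 ± 0.94 (0.069) to 3.76 ± 0.80 (0.0051) and MPP 2 h from 4.36 ± 0.97 (0.07) to 4.41 ± 0.82 (0.0024). Leaving out old mouse 2, old mouse 4 or young mouse 4 took away all 6 calls without the pairing, and leaving out young mouse 2 left 3.

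The change with ligand minus the change without it did not pass for Cdkn1a at any time or in any cell type (edgeR, 0 of 9, also 0 at an unadjusted p under 0.05 and 0 by DESeq2 and limma). That difference was 1.28 ± 1.08 on the log2 scale at 2 h in LT cells (95% interval -0.84 to 3.40), 1.17 ± 1.05 in ST cells (-0.88 to 3.22) and 0.41 ± 1.05 in MPP cells (-1.65 to 2.46), and at 4 and 8 h it ran from -1.07 to 0.64. With intervals that reach 3.40 log2 units, equal responses are not shown. In CPM at 2 h, the lowest Cdkn1a library with ligand was higher than the highest without it in each cell type: 293 against 169 CPM in LT, 222 against 137.5 CPM in ST and 240.4 against 169.8 CPM in MPP. The share of all genes separated in this way was not counted.

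Gadd45b, the Gadd45 gene known as an NF-kB target, also rose with ligand in all 3 cell types, and its highest values fell mostly at 2 to 4 h. In LT cells it was at 13.98, 6.38 and 6.01 CPM at 0 h in young mice 1, 2 and 3, at 49.5, 57.3 and 125 CPM at 0.5 h, at 147, 162 and 262 CPM at 1 h and at 246, 299 and 257 CPM at 2 h. It then was at 133, 93.4 and 77.4 CPM at 4 h, at 68.6, 207 and 22.3 CPM at 8 h and at 22.7, 100.3 and 30.1 CPM at 12 h. At 2 h the 3 mice differed little, and at 8 h mouse 2 stood well above the other two.

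In ST cells Gadd45b went from 7.24, 10.9 and 7.55 CPM at 0 h to 61.9, 46.4 and 64.2 CPM at 0.5 h, 206, 282 and 351 CPM at 1 h and 217, 344 and 352 CPM at 2 h. It was at 257, 361 and 129 CPM at 4 h, at 173, 208 and 90.2 CPM at 8 h and at 62.8, 226 and 65.6 CPM at 12 h. In all 6 groups of later ST libraries the lowest mouse was above the highest at 0 h, and young mouse 2 was highest at 4, 8 and 12 h.

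In MPP cells Gadd45b went from 14.01, 4.81 and 6.97 CPM at 0 h to 47.7, 35.9 and 42.0 CPM at 0.5 h, 109.5, 202 and 251 CPM at 1 h and 235, 315 and 309 CPM at 2 h. It was at 257.5, 329 and 205 CPM at 4 h, at 86.2, 205 and 171 CPM at 8 h and at 115, 175 and 139 CPM at 12 h. Levels at 8 and 12 h thus lay at 86.2 to 205 CPM in MPP cells and at 22.3 to 207 CPM in LT cells. Old mouse 2 was highest at 1 h in LT cells (243.5 CPM, from 16.4 at 0 h) and at 2 h in ST (364 CPM, from 10.0) and MPP cells (267 CPM, from 8.39). Over the 12 courses with ligand Gadd45b was highest at 1 h in 2, at 2 h in 6 and at 4 h in 4, and all 72 later libraries were above their own 0 h library.

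Gadd45b rose at 17 of the 18 cell type and time combinations with ligand. At 2 h the edgeR change was 5.00 ± 0.68 in LT cells (adjusted p = 3.5e-06), 5.27 ± 0.68 in ST cells (adjusted p = 1.2e-06) and 5.27 ± 0.68 in MPP cells (adjusted p = 1.5e-06). By 12 h it was 2.59 ± 0.61 in LT (0.04), 3.87 ± 0.64 in ST (3.0e-04) and 4.18 ± 0.65 in MPP (8.4e-05). The combination that missed was MPP at 0.5 h, 2.35 ± 0.60 (adjusted p = 0.18, called by DESeq2 and limma). Without young mouse 2, 9 of the 18 passed. Technical repeats also differed at 0 h, where counts were few: Gadd45b was at 0 and 31.6 CPM in the LT repeats of young mouse 1, at 0 and 13.9 CPM in those of young mouse 2 and at 0 and 18 CPM in the ST repeats of young mouse 1. Taking the deepest repeat in place of the sum gave LT changes of 4.75 to 7.21. The 0 h values of Cdkn1a were as uneven, at 0 and 18.9 CPM in the LT repeats of young mouse 2 and at 0 and 18.2 CPM in the ST repeats of young mouse 1, and with the deepest repeat its changes were 6.97 to 8.94 in LT cells (6 of 6 passed) and 3.05 to 5.96 in ST cells (4 of 6).

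Without ligand, Gadd45b behaved otherwise at 2 h. In LT cells it was at 14.2, 14.5, 78.7 and 169 CPM at 0, 2, 4 and 8 h in young mouse 4 and at 30.5, 40.7, 55.8 and 29.2 CPM in old mouse 4. In ST cells it was at 22.2, 17.99, 79.9 and 86.6 CPM in young mouse 4 and at 23.3, 10.3, 35.3 and 60.4 CPM in old mouse 4. In MPP cells it was at 20.5, 21.6, 74.1 and 137 CPM in young mouse 4 and at 15.6, 44.8, 52.2 and 39.3 CPM in old mouse 4. At 2 h Gadd45b was thus below its 0 h level in both ST courses and above it in the other courses, by most in MPP cells of old mouse 4, and at 4 h it was above 0 h in all 6 courses. None of the 9 changes without ligand passed in edgeR (log2 -0.47 to 1.06 at 2 h and 1.64 to 2.53 at 4 and 8 h, with the smallest adjusted p 0.17), although 6 had an unadjusted p under 0.05 and DESeq2 called 2.

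With ligand minus without it, relative to 0 h, Gadd45b differed by 5.88 ± 0.93 on the log2 scale in ST cells at 2 h (95% interval 4.05 to 7.70, edgeR adjusted p = 6.9e-04). This was the 1 call among 63 member tests (1.59%) of this comparison, against 0.0262% of all gene tests called higher, and 7 tests, all of Gadd45b, had an unadjusted p under 0.05. In LT cells at 2 h the difference was 4.12 ± 0.89 (adjusted p = 0.31) and in MPP cells 4.27 ± 0.89 (adjusted p = 0.091), which passed when libraries were paired by mouse (4.15 ± 0.84, adjusted p = 0.041). At 4 h it was 1.63 ± 0.85 in LT, 3.48 ± 0.87 in ST and 3.05 ± 0.87 in MPP, and at 8 h 0.80, 2.27 and 1.84, with none passing. The ST call was lost without old mouse 4 (5.49 ± 1.16, adjusted p = 0.18), with young mice only (5.40 ± 1.32, adjusted p = 1) and with the deepest technical repeat (6.62 ± 1.43, adjusted p = 0.16). In the column headers the courses with ligand carry date codes and those without carry none. Ligand, mouse and any batch thus cannot be told apart in this value.

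**Figure D2:**
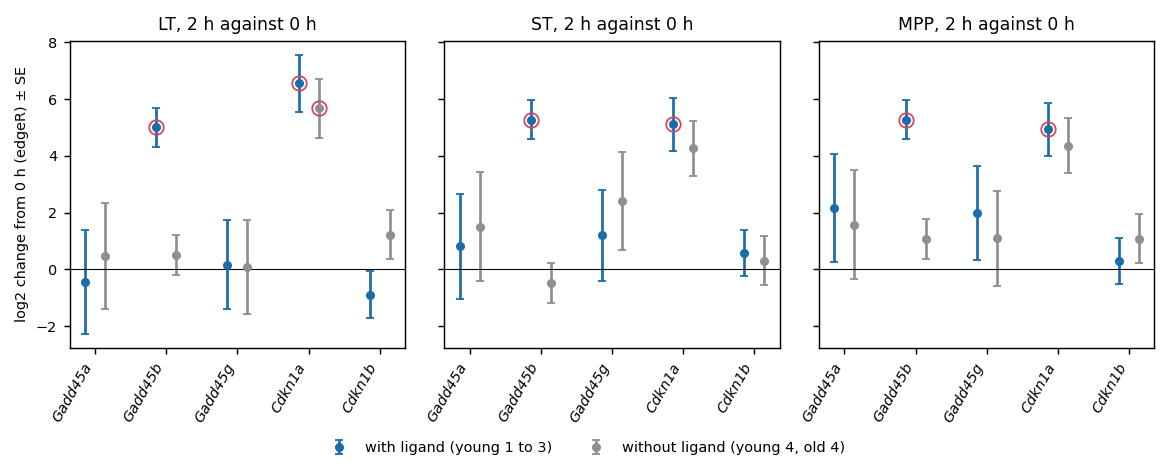
Change from 0 h at 2 h in edgeR (log2 ± SE) for 5 members in each cell type, with ligand (young mice 1 to 3) and without (young mouse 4 and old mouse 4). Red circles mark an adjusted p under 0.05. Cdkn1a is high in both courses (log2 4.93 to 6.55 with ligand and 4.26 to 5.67 without), and Gadd45b is high with ligand (5.00 to 5.27) and near 0 without (-0.47 to 1.06). Cdkn1c and Cdkn2c, which were at 0 in some libraries of most groups, are not drawn.

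From 2 to 8 h with ligand, Cdkn1a and Gadd45b were lower in all cell types by point estimate, but no member passed in edgeR (0 of 21 tests, 2 at an unadjusted p under 0.05, against 0.0171% of all gene tests called in either direction). Gadd45b in LT cells changed by -1.49 ± 0.58 (adjusted p = 0.47) and Cdkn1a in MPP cells by -1.76 ± 0.82 (adjusted p = 1). The second was called by limma (-1.67 ± 0.49, adjusted p = 0.039), and DESeq2 called none. The mean response over the 6 times also did not differ between cell types for any member (0 of 21, 1 at an unadjusted p under 0.05, with 0% of all genes called, and no call by DESeq2 or limma). The nearest was Cdkn1a, whose mean change was larger in LT than in MPP cells by 1.96 ± 0.89 (95% interval 0.22 to 3.70, adjusted p = 1).

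Gadd45a and Gadd45g, unlike Gadd45b, had no change with ligand that passed. Gadd45a, the p53 target among them, was detected in 103 of 108 libraries at up to 136 CPM. In LT cells with ligand it was at 42.1, 86.5, 81.1, 16.6, 93.5, 136 and 14.97 CPM from 0 to 12 h in young mouse 1. The same times gave 23.4, 18.4, 20.0, 19.5, 31.2, 0 and 4.19 CPM in young mouse 2 and 0, 1.28, 20.2, 9.71, 5.08, 0.219 and 2.62 CPM in young mouse 3. Young mouse 3 was the lowest of the 3 in 16 of 21 cell type and time combinations, and young mouse 1 the highest in 15.

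Gadd45g, detected in 102 libraries, split by mouse in the same way, with young mouse 3 lowest in 14 of 21 combinations and young mouse 1 highest in 13. At 0 h its LT values were 64.2, 24.3 and 7.11 CPM in young mice 1, 2 and 3. In MPP cells young mouse 1 held it at 22.1 CPM at 0 h and at 101.0, 88.3, 87.2, 99.7, 68.4 and 16.1 CPM later, while young mouse 3 went from 1.99 CPM to no more than 15.5 CPM. The neutrophil granule sums at 0 h ran in the same order among young mice 1, 2 and 3, at 54030, 31250 and 239.7 CPM in LT cells. Young mouse 4, old mouse 2 and old mouse 4 also had sums far above that of young mouse 3. In LT cells at 0 h these mice held Gadd45a at 52.65, 1.571 and 5.08 CPM and Gadd45g at 50.02, 50.93 and 10.16 CPM. Gadd45a was thus low in both old mice despite their high sums. The part of neutrophil granule transcripts in Gadd45a and Gadd45g was not tested. Neither gene passed in any of the 18 contrasts with ligand by edgeR, DESeq2 or limma. In edgeR 0 of 18 for each had an unadjusted p under 0.05. With ligand Gadd45a was above its own 0 h library in 53 of 72 later libraries and Gadd45g in 54 of 72. With libraries paired by mouse, the largest log2 changes were 2.38 ± 1.60 for Gadd45a (MPP, 0.5 h) and 2.43 ± 1.55 for Gadd45g (MPP, 4 h). With SEs of this size, rises of several fold are not excluded.

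**Figure D3:**
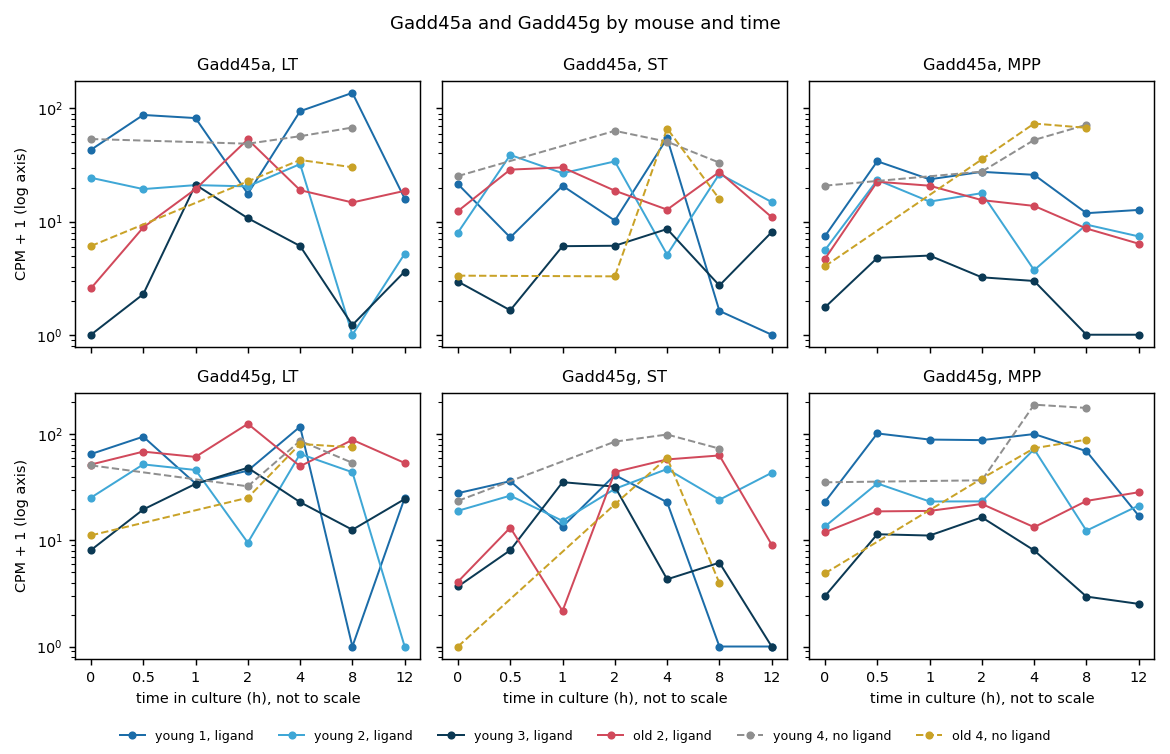
Gadd45a (upper row) and Gadd45g (lower row) in LT, ST and MPP cells over time in culture, as CPM + 1 on a log axis, 1 line per mouse, solid with ligand and dashed without. The lines separate by mouse, with young mouse 3 lowest in 16 (Gadd45a) and 14 (Gadd45g) of 21 points. The dashed MPP lines climb to 66.4 and 70.7 CPM (Gadd45a) and to 88.1 and 176 CPM (Gadd45g) at 8 h.

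Without ligand, both genes were highest in MPP cells at 4 to 8 h. Gadd45a was there at 19.8, 26.6, 51.6 and 70.7 CPM at 0, 2, 4 and 8 h in young mouse 4 and at 3.03, 34.5, 72.5 and 66.4 CPM in old mouse 4. Gadd45g was at 34.3, 35.9, 189.5 and 176 CPM in young mouse 4 and at 3.90, 37.4, 73.0 and 88.1 CPM in old mouse 4. With ligand at 8 h, the 4 mice had MPP values of 0 to 10.9 CPM for Gadd45a and 1.96 to 68.4 CPM for Gadd45g. The 2 sets of mice thus did not overlap in MPP cells at 8 h. The share of all genes with such a gap was not counted. In LT cells at 8 h they did overlap for Gadd45a. It was at 136 and 0 CPM in young mice 1 and 2 with ligand, and at 66.8 CPM in young mouse 4 without. In edgeR none of these changes passed: at 8 h without ligand Gadd45a in MPP cells was at 2.79 ± 1.99 (adjusted p = 0.82) and Gadd45g at 2.99 ± 1.78 (adjusted p = 0.79). The difference with minus without ligand at 8 h was -1.79 ± 2.32 for Gadd45a and -1.61 ± 2.04 for Gadd45g (adjusted p = 1). limma with sample weights did call Gadd45g in MPP cells at 8 h (3.70 ± 1.19, adjusted p = 0.042) and in ST cells at 4 h without ligand (5.51 ± 1.63, adjusted p = 0.047). Over all cell types 16 of 18 later libraries without ligand were above their own 0 h library for Gadd45a and 17 of 18 for Gadd45g.

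Cdkn1b, which encodes p27, a CDK inhibitor associated with quiescence, was found in all 108 libraries, at 6.28 to 80.7 CPM with a median of 17.4 CPM. In LT cells at 0 h it was at 26.5, 23.5 and 15.3 CPM in young mice 1, 2 and 3, and at 2 h with ligand at 13.7, 13.7 and 6.64 CPM. All 3 mice were thus lower at 2 h in LT cells without overlap, whereas in ST cells all 3 were higher than at 0 h, also without overlap, at 1 and at 2 h. With 3 mice at each time such gaps can arise by chance, and their share over all genes was not counted. No change with ligand passed in any cell type (edgeR, 0 of 18, also 0 at an unadjusted p under 0.05 and 0 by DESeq2 and limma). The highest value, 80.7 CPM in ST cells of young mouse 3 at 12 h, came from the shallowest library (990801 counts). With ligand 29 of 72 later libraries were above their own 0 h library, and without ligand 17 of 18 were, for example 15.8 CPM at 0 h and 37.0, 30.1 and 46.3 CPM at 2, 4 and 8 h in LT cells of young mouse 4. None of the 9 changes without ligand passed (0.17 to 1.46 on the log2 scale, smallest adjusted p 0.68).

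Cdkn1c, encoding p57, and Cdkn2c, encoding p18, were the scarcest members, with medians of 0.201 and 3.32 CPM over all libraries. Cdkn1c was found in 55 of 108 libraries. Its LT values at 0 h were 0, 9.78 and 5.74 CPM in young mice 1, 2 and 3, and its highest value was 37.95 CPM in LT cells of old mouse 2 at 2 h, where the technical repeats gave 4.39 and 47.8 CPM. In ST cells of young mouse 1 it was at 0 at all 7 times. A count of 0 in these libraries allows up to 3 counts, or 0.362 to 3.03 CPM over all member values at 0, so levels under a few CPM could not be resolved at this depth.

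Cdkn2c was found in 79 libraries and was lower in culture than at 0 h in most of them, in 53 of 72 with ligand and 16 of 18 without. In LT cells it was at 0.163, 14.3 and 4.10 CPM at 0 h in young mice 1, 2 and 3 and at 0 in all 3 mice at 1 h and at 4 h. In MPP cells it was at 3.01, 3.34 and 2.24 CPM at 0 h and at 1.58, 0 and 0.882 CPM at 4 h, a change called by limma (-3.15 ± 1.08, adjusted p = 0.039) and not by edgeR or DESeq2. In edgeR 0 of the 18 Cdkn2c changes with ligand passed, and 3 had an unadjusted p under 0.05. Old mouse 2 kept Cdkn2c at 6.13 to 12.0 CPM in LT cells from 0.5 to 12 h. It lay above all 3 young mice in 14 of 18 later combinations of cell type and time, compared with 9 for Cdkn1a, 8 for Gadd45g and 3 to 6 for the other members. This sets 1 old mouse beside 3 young ones, so it has no test, and the share over all genes was not counted.

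**Figure D4:**
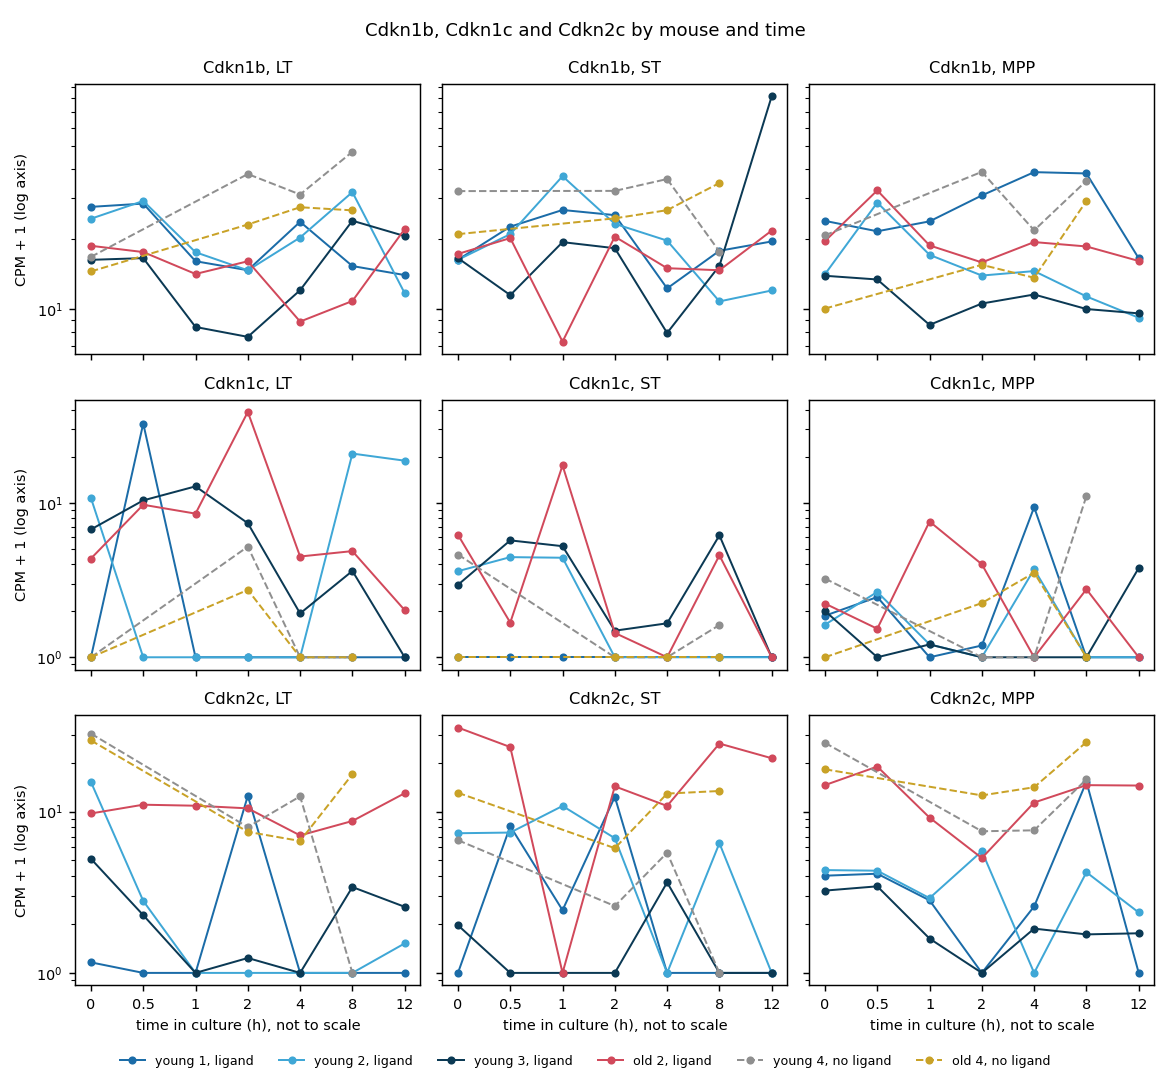
Cdkn1b, Cdkn1c and Cdkn2c (rows) in LT, ST and MPP cells over time in culture, as CPM + 1 on a log axis, 1 line per mouse, solid with ligand and dashed without. Cdkn1b stays between 6.28 and 80.7 CPM, Cdkn1c is above 0 in 55 of 108 libraries, and the Cdkn2c line of old mouse 2 runs above the 3 young mice with ligand in 14 of 18 later points.

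Before culture the members were low, and their order could not be fixed between cell types. Divided by transcript length, the LT levels at 0 h (mean ± SD over young mice 1 to 3) were 29.8 ± 27.3 CPM per kb for Gadd45g, 17.8 ± 17.2 for Gadd45a, 6.84 ± 3.5 for Gadd45b, 4.78 ± 1.27 for Cdkn1b, 2.72 ± 2.58 for Cdkn1c, 2.5 ± 2.95 for Cdkn2c and 1.92 ± 2.1 for Cdkn1a. Neighbours in that order did not differ beyond their spread. At 2 h with ligand the order per length was led by Gadd45b (208 ± 21.8 CPM per kb in LT) and Cdkn1a (176 ± 49.7), ahead of Gadd45g (31.3 ± 20.2), Gadd45a (12.5 ± 4.1) and Cdkn1b (2.49 ± 0.898). At 0 h Cdkn1a had stood at 3.63 ± 2.74 CPM per kb in ST and 6.21 ± 2.11 in MPP cells, so its low mean in LT cells was not its place in the other cell types. Gadd45b also led in ST cells at 2 h (237 ± 59 against 118 ± 10.7 for Cdkn1a) and in MPP cells (223 ± 34.7 against 164 ± 52.9).

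Among the 4 young mice at 0 h no member differed between cell types (edgeR, 0 of 21 tests, also 0 at an unadjusted p under 0.05 and 0 by DESeq2 and limma), with 0% of all genes called. Gadd45a was at 42.1, 23.4, 0 and 52.7 CPM in LT and 6.45, 4.60, 0.747 and 19.8 CPM in MPP cells of young mice 1 to 4. It was higher in LT cells in 3 of the 4 mice (1.87 ± 1.35, 95% interval -0.77 to 4.51, and 1.62 ± 0.97 with mouse as a block). Cdkn1a had the opposite order, at 0, 8.67, 3.28 and 2.63 CPM in LT and 16.9, 13.6, 8.21 and 3.36 CPM in MPP cells, higher in MPP cells in all 4 mice (LT minus MPP -1.50 ± 1.28, adjusted p = 1). The 3 cell types came from the same mice, and some of these 21 comparisons had the same order in every young mouse. With 4 mice such an order can arise by chance, and its share over all genes was not counted. Gadd45g was higher in LT than in MPP and than in ST cells in all 4 young and both old mice, by 1.20 ± 0.51 and 1.07 ± 0.51 in the young mice with mouse as a block (adjusted p = 0.92 and 0.99). Cdkn2c was higher in LT than in ST cells in 4 of 4 young mice (1.90 ± 1.60, and 1.83 ± 1.26 with the block) and in 1 of 2 old mice, and Gadd45a was higher in ST than in MPP cells in 4 of 4 young mice and in 1 of 2 old mice. No member passed with the block either, and the intervals leave room for differences of several fold.

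**Figure D5:**
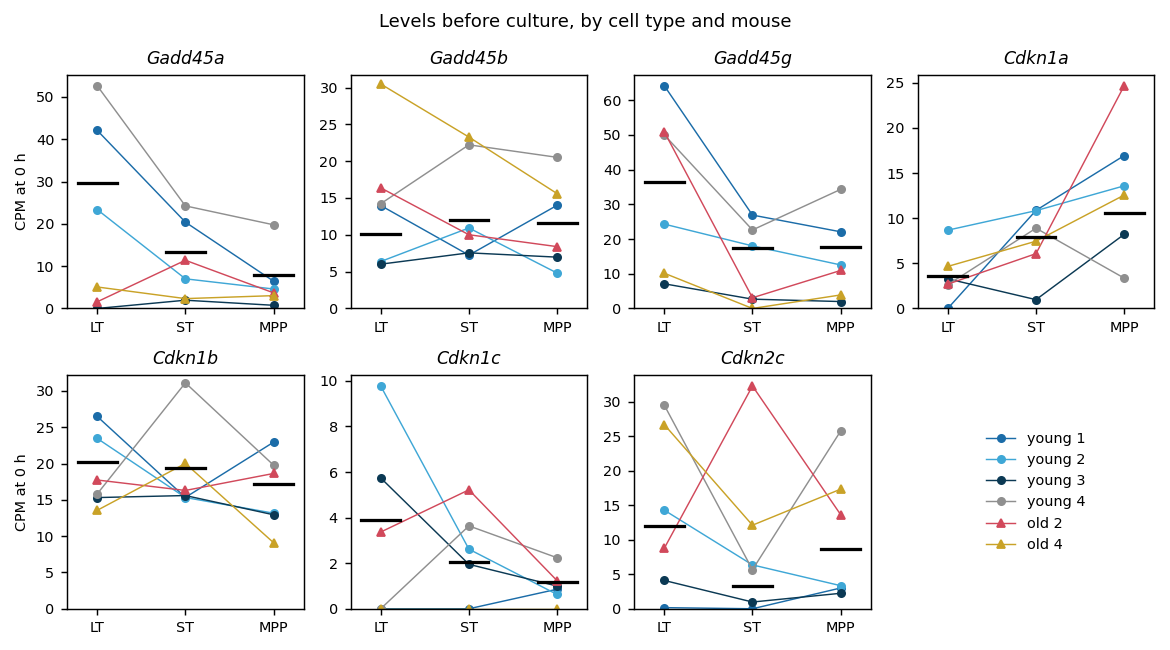
Levels of the 7 members at 0 h, as CPM on a linear axis, in LT, ST and MPP cells, with 1 point per mouse, triangles for the 2 old mice and a black bar for the mean of the 4 young mice. Points of 1 gene spread over more than the distance between cell types, as for Gadd45a in LT cells (0 to 52.7 CPM in the young mice).

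Age was compared at 0 h between young mice 1 to 4 and old mice 2 and 4, and no member passed (edgeR, 0 of 21 tests, 1 at an unadjusted p under 0.05, none by DESeq2 or limma), with 0% of all genes called. That 1 test was Gadd45g in ST cells, at 26.9, 18.03, 2.68 and 22.6 CPM in the young and 3.09 and 0 CPM in the old mice (-3.43 ± 1.47, 95% interval -6.32 to -0.55, adjusted p = 1). Cdkn2c in ST cells was at 0, 6.35, 0.975 and 5.66 CPM in the young and 32.3 and 12.1 CPM in the old mice, which did not overlap, with an adjusted p of 1. How often other genes part the ages in this way was not counted. Cdkn1a at 0 h was at 2.69 and 4.66 CPM in old LT cells and 0 to 8.67 CPM in young LT cells. After stimulation old mouse 2 lay within the range of the 3 young mice in 14 of 18 combinations for Gadd45b and 8 of 18 for Cdkn1a, and above it in 3 and 9.

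Genes around the members were taken from 7 lists, also chosen with earlier results of these data known, so their shares of calls are descriptions. In edgeR, of 22 other genes known as p53 targets, 2 rose with ligand, Btg2 and Plk2, and none fell. They did so in 12 of 396 gene and contrast tests, beside 0.247% of all gene tests called higher. Btg2, an antiproliferative immediate early gene, went from 62.7 ± 29.4 CPM (SD, n = 3) to 1.79e+03 ± 386 CPM at 0.5 h in ST cells (4.86 ± 0.73 on the log2 scale, edgeR adjusted p = 3.7e-05). It passed at 0.5 and 1 h in all cell types. Plk2, a polo-like kinase that is also an immediate early gene, passed at all 6 times in MPP cells, from 0.0859 ± 0.149 CPM to 186 ± 146 CPM at 0.5 h. The median log2 change of the 22 lay between -0.01 and 1.67 over the 18 contrasts, beside -0.41 to -0.05 for all genes. Over the 9 contrasts without ligand it lay between 0.74 and 1.72, beside -0.07 to 0.00 for all genes, while 0 of 198 tests passed (29 at an unadjusted p under 0.05, with 4.62% of all gene tests there).

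The count of p53 targets depended on the tool. With ligand DESeq2 called 48 tests higher and 6 lower, in 10 of the 22 genes, and limma called 49 higher and 2 lower, in 14 genes that include Mdm2, Ccng1 and Bax. Without ligand DESeq2 called 16 higher (Bax, Phlda3 and Plk3), and limma called 15 higher and 1 lower. Both tools called far more of all genes than edgeR did: with ligand DESeq2 called 1.22% of gene tests higher and 1.71% lower and limma 1.79% and 2.48%, and without ligand DESeq2 called 0.724% and 1.35% and limma 1% and 2.26%.

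Of 15 regulators known to act on these genes, Atf4 and Rela rose with ligand in edgeR and Atf4 and Ddit3 without it. Atf4, a transcription factor of the integrated stress response, passed at 1 h in all cell types (1.94 to 2.07 on the log2 scale) and at 2 h in ST and MPP cells. In LT cells it went from 116 ± 20.9 CPM at 0 h to 408 ± 90.9 CPM at 1 h (SD, n = 3). Without ligand Atf4 passed at 8 h in all cell types (2.31 to 2.41) and at 4 h in LT cells, and Ddit3, which encodes CHOP, a target of Atf4, at 8 h in LT cells (4.98 ± 1.12, edgeR adjusted p = 0.031). Rela, an NF-kB subunit, passed once, in LT cells at 2 h (2.30 ± 0.55, adjusted p = 0.039). With ligand these were 6 of 270 tests, against 17 higher and 6 lower by DESeq2 and 28 higher and 9 lower by limma. Without ligand they were 5 of 135, against 11 higher and 3 lower by DESeq2 and 15 higher and 4 lower by limma. Of all gene tests, edgeR called 0.247% higher with ligand and 0.0895% without it. In the same order, DESeq2 called 1.22% and 0.724% higher and 1.71% and 1.35% lower. The limma shares were 1.79% and 1% higher and 2.48% and 2.26% lower.

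Among 12 partners of GADD45 proteins, Map2k3, a kinase that activates p38, was the 1 gene that passed in edgeR. It was higher in 7 of 216 tests with ligand, beside 0.247% of all gene tests. In MPP cells with ligand it went from 108 ± 18.9 CPM at 0 h to 645 ± 37.1 CPM at 2 h (2.80 ± 0.46 on the log2 scale, edgeR adjusted p = 1.5e-04), and in LT cells it rose by 2.36 ± 0.45 at 2 h (adjusted p = 0.0028). Map2k3 was also higher at 2 h without ligand (mean ± SD, 2 mice). It went from 134 ± 43.4 to 377 ± 0.948 CPM in LT cells and from 177 ± 10.7 to 369 ± 6.17 CPM in ST cells. In MPP cells it went from 159 ± 32.9 to 341 ± 47.5 CPM. No partner passed in edgeR without ligand, or with against without it. DESeq2 called 7 tests higher (3.24%) and 4 lower (1.85%) with ligand, and limma 8 higher (3.7%) and 5 lower (2.31%). Of all gene tests, DESeq2 called 1.22% higher and 1.71% lower and limma 1.79% and 2.48%, so the lower shares of the partners were near those of all genes. In edgeR no gene of the other 4 lists passed in any of the 7 comparisons: 12 G1 cyclins and kinases, 9 ubiquitin ligase genes that act on CDK inhibitors, 20 genes of S, G2 and M phase, and 2 further INK4 genes (of 3 listed). At an unadjusted p under 0.05 there were 35 of 576, 8 of 432, 42 of 960 and 9 of 90 tests in these lists (6.08%, 1.85%, 4.38% and 10%), against 4.63% of all gene tests in the 7 comparisons.

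The other tools placed calls in these lists, which are set beside their share of all gene tests called lower with ligand against 0 h (1.71% by DESeq2 and 2.48% by limma). DESeq2 called 9 tests of G1 genes lower (4.17%; Ccnd1, Ccne1, Cdk4, E2f1 and Rbl1) and limma 7 (3.24%; Ccnd1, Cdk4 and E2f1), with none higher. Of the S, G2 and M genes, DESeq2 called 7 lower (1.94%, near the share of all genes) and limma 27 (7.5%), with none higher. Of the ubiquitin ligase genes 2 tests were lower by DESeq2 (1.23%, under the share of all genes) and 6 by limma (3.7%), all Dtl and Skp2. Cdkn2b, the INK4 gene for p15, was called higher with ligand against 0 h in 10 contrasts by DESeq2 and in 4 by limma. These were 27.8% and 11.1% of the 36 tests of its list, beside 1.22% and 1.79% of all gene tests called higher. In edgeR the median log2 change with ligand lay between -1.22 and 0.03 for the G1 list and between -1.72 and -0.04 for the S, G2 and M list, beside -0.41 to -0.05 for all genes.

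Patterns were compared over the 21 group means of the young course with ligand, which share their 3 mice, so the values are descriptions. Gadd45b and Cdkn1a had a Pearson r of 0.88 with each other, and Gadd45a and Gadd45g one of 0.58. Among 8842 genes, the 3 most like Gadd45b were Zc3h12a (0.958), Cd83 (0.956) and Nfkbia (0.951), and the 3 most like Cdkn1a were Tnfaip3 (0.957), Nfkbiz (0.937) and Ier5 (0.929). For the others the likeness was weaker: Fam46c (0.826), Zfp36l1 (0.782) and Cpne8 (0.733) for Gadd45g, Ccny (0.814), Tgfbr2 (0.704) and Lepre1 (0.662) for Cdkn1b, and Acpp (0.757), Bag3 (0.725) and Hspb1 (0.709) for Gadd45a. Cdkn1c came nearest to Slc24a5 (0.773), AB124611 (0.755) and Hid1 (0.730), and Cdkn2c to Gm15800 (0.759), Nap1l4 (0.746) and Glt25d1 (0.743). Both are genes of few counts, at 0 in some of the libraries averaged.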

How the data were processed

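Expected counts per gene symbol were deposited by the authors in 1 table of 127 libraries, made with RSEM on mm9 per the submitters' processing notes (version and other steps are not given in the sources used here), and 89.5% of the deposited expected counts were whole. The 6 libraries under 1000 counts (7 to 41 counts, LT cells of old mouse 2) were dropped, technical repeats were summed (12 libraries, up to 3 repeats) and sums were rounded. CPM were computed from library totals. Columns with ligand were matched to mice by age, cell type, time and the number of repeats per date code in the headers, which fits 1 mouse each. Columns without ligand carry no date code and were matched by age, cell type and time, which fits 1 mouse of each age. Libraries at 0 h served as the baseline whatever their treatment label. The members and lists were chosen with earlier results of these data known.

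Tests used edgeR 4.0.16 (quasi-likelihood F test, TMM, filterByExpr) in R 4.3.3 on whole tables, with Benjamini-Hochberg adjustment over all genes tested within each of 48 contrasts in 7 comparisons: 63 libraries and 13678 genes for time with ligand, 72 and 14401 for both courses, 12 and 11568 for cell types at 0 h, 18 and 12983 for age. The edgeR SE is the size of the log2 change divided by the square root of its F value. It is unreliable for changes near 0. Intervals are ± 1.96 SE, a normal approximation that can be too narrow in fits of few libraries. The tests were tried on simulated data with a single spread common to all genes. The fitted changes were close to the planted ones, but edgeR called none of the planted genes in the comparisons of the time course, also after the planted change was made larger because the first size gave almost no calls. It called most of them between cell types at 0 h. A gene that did not pass in the time course may therefore still have changed. All 7 members, up to 4 passing genes per list with the smallest adjusted p, and the 3 genes most like each member (Pearson r of log2(mean CPM + 1), mean of at least 10 CPM) are named. Alternatives were DESeq2 1.42.0, limma 3.58.1 (voom with sample weights), other scaling and filters, the deepest repeat, libraries with at least 8000 detected genes, a mouse block, fewer libraries and leaving out each mouse.

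The mouse numbers pair libraries, since titles give 1 mouse number per age: residuals of libraries of the same mouse had a mean correlation of 0.207 (young mouse 1), 0.0776 (young mouse 2) and 0.432 (young mouse 3). Residuals of different mice had -0.133, -0.0546 and -0.223. Residuals were taken from the group mean of the same mice, which pushes these values below 0, so they add no separate evidence of pairing. P-values rest on the spread between mice within groups, pooled over groups that share the same mice and estimated with help from all genes. Without the block, libraries of 1 mouse were treated as independent. Limits of counts cover counting error only. Motifs were searched in RefSeq windows on GRCm38.p6, a build other than that of the counts, so the windows were matched by symbol alone.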

Additional observations from a re-analysis of the deposited data

Results flagged for a closer look

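Among the 21 sets of 4 young mice at 0 h (7 members, 3 cell types), 2 had a mouse far from the others by Dixon's criterion, which chance meets in about 1 in 20 sets, and both were in young mouse 4. Cdkn1b in ST cells was at 31.1 CPM there and at 15.3 to 15.6 CPM in young mice 1, 2 and 3. Cdkn2c in MPP cells was at 25.7 CPM there and at 2.24 to 3.34 CPM in the other 3 young mice.

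Gadd45b in ST cells at 2 h differed between the courses with and without ligand by 5.88 ± 0.93 on the log2 scale (edgeR, adjusted p = 6.9e-04), a test of the difference itself, between 4 mice and 2 others.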

How the results depend on the processing

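None of the 38 member results called by edgeR changed direction under the alternatives run. Estimates that did not pass were less stable: of up to 298 compared, 0 to 46 changed sign under 1 alternative (46 with limma), and Gadd45a in LT cells at 2 h moved from -0.44 to 0.91 with mouse as a replicate block. With ligand against 0 h, 31 member calls became 12 with only the compared libraries and 9 to 25 without 1 young mouse (9 without mouse 2, 20 without mouse 1, 25 without mouse 3), and 23 to 35 under the other alternatives. Without ligand, 6 calls became 11 with DESeq2 and 0 to 9 without 1 mouse (0 without old mouse 2, old mouse 4 or young mouse 4, 3 without young mouse 2). With against without ligand, 1 call became 5 with DESeq2, 2 with limma, 2 with at least 8000 detected genes, 0 with the deepest repeat, 0 with young mice only and 0 to 1 without 1 mouse. From 2 to 8 h, limma gave 1 call where edgeR gave 0. Cell types at 0 h, age and the difference between cell types gave 0 member calls under every alternative run. For the 7 lists, DESeq2 and limma made more calls than edgeR with ligand against 0 h, 54 and 51 against 12 for the p53 targets, and the cause was not tested. DESeq2 scaling shifted the median of all genes by -0.18 to 0.09 on the log2 scale (over 0.1 in 9 of 48 contrasts) and moved no member across the threshold.

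With libraries paired by mouse as a replicate block there were 34 calls with ligand, 9 without, 2 with against without ligand and 0 in each of the other 4 comparisons (age by a random block in limma). The block removed no member call.

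Depth limits Cdkn1c and Cdkn2c most. A single count was worth up to 1.01 CPM, and they were at 0 in 53 and 29 of 108 libraries.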
